A study of Mus musculus with 161 samples.

Results

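Boundary 2 is the border between topologically associating domains (TADs) that lies just below Cited1 on the mouse X chromosome, in the 20-kb bin from base 99411148 to base 99431148 of mm9. Its crossing contacts were taken as all primer pairs of chromosome conformation capture carbon copy (5C) with 1 restriction fragment whose midpoint lay 0 to 100 kb below the bin and 1 whose midpoint lay 0 to 100 kb above it. The rule found 311 of the 244944 primer pairs, formed by 27 fragments below and 23 above. The primers of 40 of these pairs carried no corrected values in any library, which left the measured pairs described here, from 27 fragments below and 20 above. They joined sites at least 43.3 kb apart, and the most distant fell in the class of 200 to 240 kb.

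5C uses a pool of forward and reverse oligonucleotides to count ligation products between HindIII fragments, and each count is 1 contact read. The series held 91 5C libraries from male mouse embryonic stem cells (mESC) of the line E14Tg2a and its subclones, with a single X chromosome. Most libraries came from CTCF-AID, Tir1 cells, in which auxin destroys the endogenous CTCF, with a doxycycline-inducible (TetO, driven by Rtta3G) CTCF transgene knocked in at the Tigre locus. The Full-length clone was the high-expressing one, which the study also used for ChIP-seq as the nearest in level to the Del_1-265 clones. In the study its transgene was still expressed well below the endogenous CTCF-AID protein, which was itself below untagged CTCF. All transgene libraries had been treated with auxin for 4 days, and all but 2 also with doxycycline (dox). The reference was the Full-length transgene line, with 14 libraries, and the same line without dox gave 2 libraries in which endogenous CTCF was degraded and no transgene was induced. A second Full-length clone labelled for low expression gave 2 libraries. The N-terminal transgenes were Del_1-265 (2 clones, 6 and 4 libraries), Del_13-33 (2 clones, 6 and 4), Del_1-31 (2 clones, 2 and 2), and Del_1-88, 89-178, 179-265, Y226A-F228A and del_13-33-Y226A-F228A (2 libraries each). The others were 264-288, H288R, N/C-term-swap, Mut Parylation and the Sumoylation deficient pair (K74R with Del_576-614 and K74R with Del_615-736), each with 2 libraries, and the C-terminal Del_576-614 (3), Del_577-736 (1) and Del_615-736 (1). The untreated lines were WT parental E14Tg2a (3 libraries), endogenous Del_13-33 in otherwise untagged cells (2 clones, 3 and 4), CTCF-AID, Tir1 (4), and endogenous Del_13-33 in CTCF-AID, Tir1 cells (2 clones, 4 and 4), which keep CTCF because no auxin was added. Every line other than WT parental E14Tg2a, the parent of the subclones, was derived from a single clone. A difference between lines is thus also a difference between clones, or between subclones and their parental cells. Whether libraries of a line came from separate cultures was not given for each, so p-values measure the spread between libraries, which may be technical.

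CTCF binds DNA in an orientation set by its motif and stops cohesin, the ring complex that extrudes chromatin loops. Loops that are stopped on each side of a TAD border leave few contacts across it, and the N terminus of CTCF is the end that faces arriving cohesin. Loss of a border appears in 5C as more contacts between the flanks. The bin itself held no annotated gene. Below it lie Rps4x (chrX:99380280-99384733, minus strand), which encodes a ribosomal protein, Ercc6l (chrX:99337055-99352430, minus strand), which encodes a DNA helicase of mitotic chromosomes, and Pin4 (chrX:99314786-99323008, plus strand), which encodes a peptidyl-prolyl isomerase. Above it lie Cited1 (chrX:99442720-99447520, minus strand), which encodes a transcriptional co-activator, the noncoding Gm14858 (chrX:99447861-99560837, plus strand), and Hdac8 (chrX:99479978-99700698, minus strand), which encodes the deacetylase that recycles cohesin.

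The deposited list of FLAG-CTCF peaks of the Full-length line held 9 peaks in the bin and its flanks, of which 5 lay below, 3 in the bin and 1 above, in an exon of Cited1. Sequences are shown for the 3 peaks of the bin, which are the binding sites nearest to the border, and for the 2 peaks below (peaks 2 and 3) whose fragments have their midpoints in the lower flank and so form the ends of peak-to-peak contacts. Peak 5, also below, lies in FOR_Xic4_168 together with the peaks of the bin, and the midpoint of that fragment falls in the bin, so it forms no member pair. All 5 are intergenic and are written for the plus strand of mm9. Peak 2 lies at chrX:99358528-99358727, peak 3 at chrX:99374108-99374307, peak 6 at chrX:99414572-99414771, peak 7 at chrX:99415083-99415282 and peak 8, which overlaps peak 7 at its edge, at chrX:99415270-99415469. Capitals mark matches to the core letters of the CTCF motif, searched on both strands as AGNNGGC with G or A at the first N and G or T at the second.
Peak 2: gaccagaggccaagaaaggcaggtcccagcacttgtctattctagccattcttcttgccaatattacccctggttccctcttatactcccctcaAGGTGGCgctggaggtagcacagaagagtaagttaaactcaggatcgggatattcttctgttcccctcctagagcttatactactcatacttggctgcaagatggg
Peak 3: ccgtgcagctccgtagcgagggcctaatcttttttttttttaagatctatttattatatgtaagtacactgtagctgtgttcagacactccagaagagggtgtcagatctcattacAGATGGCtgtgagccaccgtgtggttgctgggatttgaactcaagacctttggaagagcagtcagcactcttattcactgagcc
Peak 6: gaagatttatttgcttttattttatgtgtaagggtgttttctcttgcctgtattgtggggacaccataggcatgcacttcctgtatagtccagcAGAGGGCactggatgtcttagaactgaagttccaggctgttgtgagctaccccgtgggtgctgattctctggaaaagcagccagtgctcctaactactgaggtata
Peak 7: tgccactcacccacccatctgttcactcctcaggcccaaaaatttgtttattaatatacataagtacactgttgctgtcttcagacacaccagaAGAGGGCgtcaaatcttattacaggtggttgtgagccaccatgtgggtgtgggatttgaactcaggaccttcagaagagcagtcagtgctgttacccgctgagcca
Peak 8: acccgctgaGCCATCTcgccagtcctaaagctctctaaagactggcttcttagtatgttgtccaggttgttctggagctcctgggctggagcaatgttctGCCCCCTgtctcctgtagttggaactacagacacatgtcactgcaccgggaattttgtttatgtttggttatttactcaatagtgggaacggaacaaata
The matches of peaks 2, 3, 6 and 7 were on the plus strand and both matches of peak 8 were on the minus strand, so the bin held matches in both orientations. These letters occurred in 6 of the 9 peaks, against 65.3% of the 49682 peaks of the whole list, and a match describes the letters only.

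Contacts are given per measured pair on 2 scales. The first is the mean corrected value per pair after the library was set to a total of 1000000, called the corrected scale. The second divides each pair by the mean of the same library over all pairs in the same 20-kb class of distance before averaging, called crossing contact over expected, in which 1 is the mean of the assayed region at that distance. Of 82 libraries with complete counts, the totals ran from 3631870 to 23419010 reads and the counts over the measured pairs from 5908 to 38221 (median 19244). The numbers of the libraries fell into 6 groups of nearby numbers, some with gaps inside, called runs 1 to 6 in order and used as batches. Crossing contact on the corrected scale differed between runs, from 6.19 on average in run 5 to 9.28 in run 1, and the Full-length line moved with them, from 5.96 to 9.17. The spread of the Full-length libraries was smaller over expected (a coefficient of variation of 5.58%) than on the corrected scale (11.9%). Results are given on both scales and within runs.

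Few contacts crossed boundary 2 in any line. Crossing contact over expected was below 1 in all 91 libraries, between 0.533 and 0.822. In the Full-length libraries it was lowest at 0.558, with a median of 0.649 and a highest value of 0.699. Pairs within the lower flank stood at 0.970 and pairs within the upper flank at 1.22 over expected in the same libraries, and both flanks were above the crossing pairs in 91 of 91 libraries. The depletion was shared by most members, since 238 pairs (87.8%) were below expected in the mean of the Full-length libraries. Among the 5 other borders of the assayed region, numbered along the chromosome, crossing contact at boundary 2 was lower over expected than at boundaries 1 and 3 in all 91 libraries, lower than at boundaries 5 and 6 in 32 and 30 libraries, and lower than at boundary 4 in 0.

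**Figure D1:**
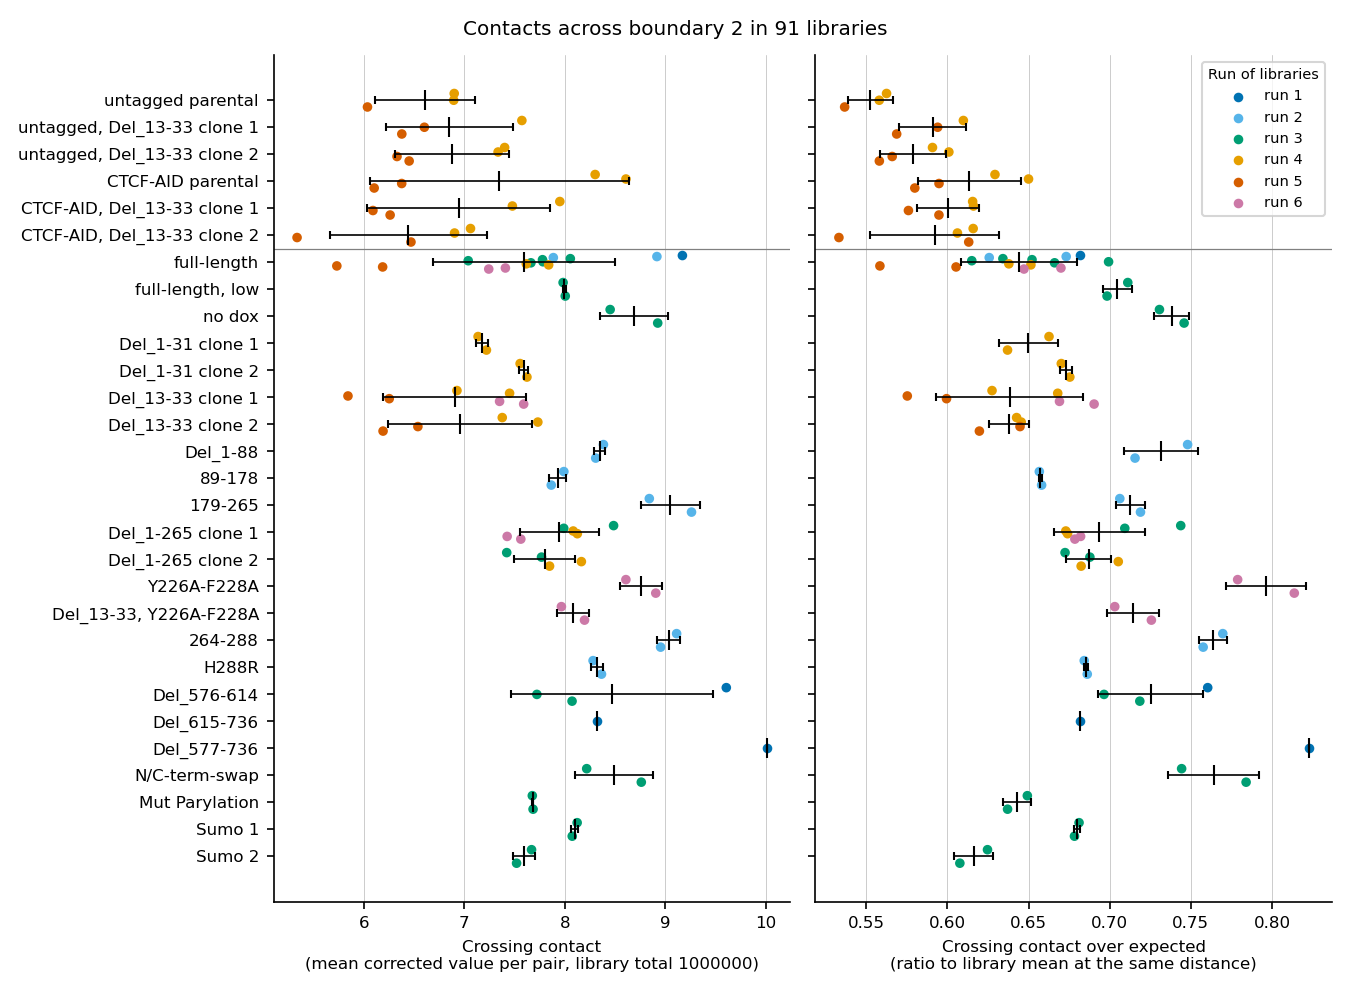
Crossing contact in 91 libraries by line, on the corrected scale on the left and over expected on the right, with each point 1 library coloured by its run and bars at the mean and SD of each line (untagged parental is WT parental, and Sumo 1 and 2 are the Sumoylation deficient lines). All points lie below 1 over expected, and the points of 1 line spread by run more on the left than on the right.

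Depletion was deeper for pairs whose fragments lay farther from the bin. Pairs with both fragments within 50 kb of it (the near pairs, 35 in number) stood at 0.847 over expected in the Full-length line, pairs with 1 such fragment (the mid pairs, 125) at 0.690, and pairs with none (the far pairs, 111) at 0.528. This order of near, mid and far held in 90 of 91 libraries. By distance alone, the Full-length mean fell from 18.2 on the corrected scale at 40 to 80 kb to 4.36 at 160 to 200 kb, and the ratio to expected fell with it from 0.940 to 0.509. Over the measured pairs the log value fell with the log distance (Pearson's r = -0.723, across pairs that share fragments).

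Levels over expected spanned a wider range across fragments than across libraries, but a fragment level averages far fewer pairs than a library level. The highest levels over expected in the Full-length line belonged to REV_Xic4_167, at the pseudogene Gm14859 below the bin (1.07), and to its neighbour REV_Xic4_165 (1.05), and the lowest to FOR_Xic4_144 (0.299). Above the bin the highest were FOR_Xic4_186 inside Hdac8 (0.969), REV_Xic4_171 in Cited1 (0.922), FOR_Xic4_188 inside Hdac8 (0.906) and FOR_Xic4_172 in Cited1 (0.904), and the lowest was REV_Xic4_208 inside Hdac8 (0.367). Of the 47 measured fragments, 45 were below expected in the Full-length line. Del_1-265 stood above Full-length in 38 of the 47, the libraries without dox in 42 and Y226A-F228A in 43, and the untagged endogenous deletion stood above WT parental in 30 and that in CTCF-AID cells above its parental line in 18. Fragments share pairs and libraries, so these counts are a description.

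**Figure D2:**
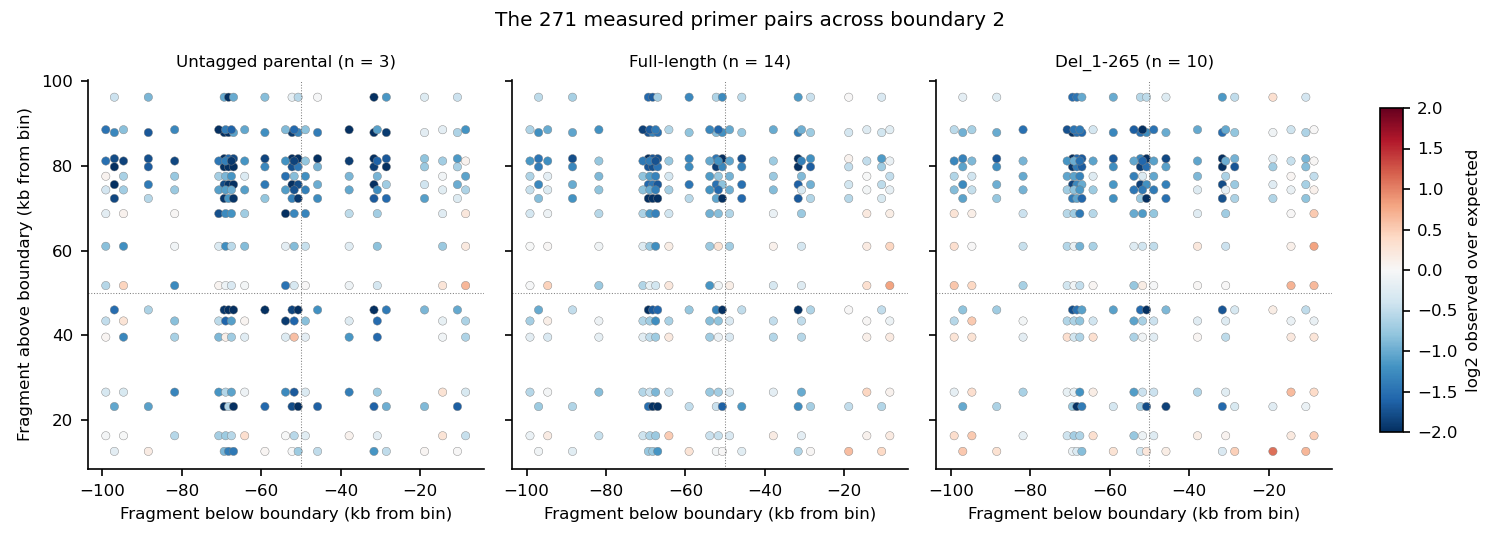
Each point is 1 measured pair, placed by the distance of its lower and upper fragment from the bin in kb and coloured by the log2 of its mean contact over expected in WT parental, Full-length and Del_1-265 libraries. Dotted lines mark 50 kb, and in each panel blue pairs below expected outnumber red pairs, which gather near the bin.

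Crossing contact was first compared with the Full-length line for each other transgene line and for the Full-length line without dox. The 22 comparisons used two-sided exact permutation tests (100000 resamples for Del_1-265 and Del_13-33), adjusted by the Benjamini-Hochberg method. On the corrected scale, 0 of 22 were called at an adjusted p under 0.05, and 0 had an unadjusted p under 0.05. Over expected, 11 were called and all were higher than Full-length, by 0.0949 to 0.308 on the log2 scale with adjusted p from 0.00968 to 0.0333 (permutation tests). These were the pooled Del_1-265 clones and 10 lines, clones or conditions, with the Full-length line without dox counted among the 10. In 7 of the 10, that condition included, the libraries did not overlap those of the Full-length line with dox. All 11 were also positive within runs, by 0.0785 to 0.274, but only pooled Del_1-265 and its clone 1 were called there (adjusted p = 0.0291 for both, permutation within runs). The called lines with all libraries in 1 run could not be called within runs. Too few Full-length libraries shared their run for a p under 0.05. The other 11 comparisons ranged from -0.062 to 0.132 over expected.

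Without dox, crossing contact over expected was 0.731 and 0.746 in the 2 libraries, both above all 14 Full-length libraries. The log2 difference was 0.20 (adjusted p = 0.0333, exact permutation, where 0.0167 is the smallest unadjusted p that 2 against 14 allows). The corrected values were 8.45 and 8.93 against 7.59 ± 0.90 (SD, n = 14) in the Full-length line, and the Full-length range of 5.73 to 9.17 contained both. That log2 difference was 0.20 (exact permutation p = 0.0833) and 0.18 within the run (exact permutation p = 0.0952, the smallest possible). The low-expression clone had values between those groups, at 0.711 and 0.698 over expected, which was 0.13 above Full-length on the log2 scale and not called (adjusted p = 0.0611, exact permutation). Its corrected values were 7.98 and 8.0, and its log2 difference from the no-dox libraries on that scale was -0.12, where an exact permutation of 2 against 2 can give no p below 0.333.

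Del_1-265, which lacks the N terminus up to the zinc fingers, had slightly higher crossing contact over expected in both clones. Its 10 libraries ran from 0.672 to 0.744 with a median of 0.682, so the ranges overlapped those of the Full-length line (0.558 to 0.699). The log2 difference was 0.10 (adjusted p = 0.00968, permutation), with 0.11 in clone 1 and 0.0949 in clone 2, and 0.0872 within runs. The call of clone 2 was lost without its replicate 2, 3 or 4 (adjusted p = 0.0611, 0.108 and 0.0588, exact permutation). The lines could not be separated on the corrected scale, with 7.89 ± 0.35 (SD, n = 10) in Del_1-265 against 7.59 ± 0.90 (SD, n = 14), a log2 difference of 0.06 (permutation p = 0.305). Its sign turned with the median over pairs (-0.043) and with flanks of 200 kb (-0.040), and it was 0.20 and called as a ratio to the pairs within the flanks.

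By position, the Del_1-265 difference was largest in size for pairs near the bin. Over expected, near pairs rose from 0.847 in the Full-length line to 0.956, a log2 difference of 0.18 (adjusted p = 0.00144 over 36 class comparisons, permutation). Mid pairs rose by 0.12 on the same scale, also called, and far pairs differed by 0.04 without a call. The differences between classes were not tested. On the corrected scale, 0 of 36 class comparisons were called, against 13 over expected, a scale that was not planned for the classes. The lower flank moved the other way over expected, with a log2 difference of -0.042 in Del_1-265 (adjusted p = 0.00024, permutation), the 1 call among 12 flank comparisons.

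The line with the substitutions Y226A-F228A, which remove the cohesin-binding residues of the N terminus, had the largest difference over expected among the called lines. Its 2 libraries stood at 0.779 and 0.814, above all Full-length libraries (log2 difference 0.31, adjusted p = 0.0333, exact permutation), and the difference was 0.27 within its run. Their corrected values were 8.61 and 8.91, a log2 difference of 0.22 (exact permutation p = 0.1). Near pairs reached 1.09 over expected, so that crossing pairs close to the bin exceeded the regional mean, and the log2 difference from Full-length was 0.36 (adjusted p = 0.0462, exact permutation). Mid and far pairs were also called, at 0.26 and 0.35. Combined with deletion of 13 to 33, the values were 0.703 and 0.726 over expected, called at 0.15, and on the corrected scale this line differed from Y226A-F228A by -0.12 (exact permutation p = 0.333, the smallest that 2 against 2 allows).

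Values of transgenic Del_13-33 were all inside the Full-length range over expected. Its 10 libraries ran from 0.575 to 0.690 over expected with a mean of 0.638 ± 0.034 (SD, n = 10), against 0.644 ± 0.036 (SD, n = 14) in the Full-length line, a log2 difference of -0.013. Their corrected values were lower, at 6.93 ± 0.67 (SD, n = 10), by -0.13 (permutation p = 0.071), a difference of 0.004 within runs. Crossing contact was lower in Del_13-33 than in Del_1-265 by -0.19 on the corrected scale (adjusted p = 0.00448 over 7 comparisons between lines, permutation) and by -0.12 over expected (adjusted p = 0.0028, permutation). Within runs these were -0.0875 and -0.0552, and the call was lost (adjusted p = 0.133 on the corrected scale, permutation).

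Among the other lines, 264-288 and N/C-term-swap both averaged 0.764 over expected and were called at 0.25, Del_1-88 averaged 0.732 and was called at 0.19, and 179-265 averaged 0.713 and was called at 0.15. The 3 libraries of the Del_576-614 line stood at 9.61, 7.72 and 8.07 on the corrected scale, and their mean over expected was 0.725 (log2 difference 0.17, exact permutation p = 0.00588, called). The title of the first of these names another deletion but its line name is that of the other two, and without it the difference was 0.137 (exact permutation p = 0.0333) and no longer called (adjusted p = 0.0611), as was also so without the third (0.178, adjusted p = 0.0611, exact permutation). Del_1-31, 89-178, H288R, Mut Parylation and both Sumoylation deficient lines were not called. The single library of Del_577-736 had the highest value of the series (10.01 on the corrected scale, 0.822 over expected) and that of Del_615-736 stood at 8.32 and 0.681, with no replicate check for either. Transgene expression differed between lines in the study, where insulation scaled with it. It was very low for Del_577-736 and lower than Full-length for the C-terminal deletion ending at 614. The part of expression in these differences was not tested.

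Higher values over expected were not particular to this border. When the same measure was taken across each of 188 overlapping 20-kb bins along the region, limma called 33% of them higher in Del_1-265, 25% higher without dox and 28.2% higher in Y226A-F228A. In the same order, 62, 47 and 53 bins were called higher and 58, 40 and 54 lower. Boundary 2 was among the called bins in each, at rank 43 by size of the log2 increase (largest first) in Del_1-265, 18 without dox and 12 in Y226A-F228A. On the corrected scale, limma called 121 bins in transgenic Del_13-33, all lower, with boundary 2 among them (-0.13, limma adjusted p = 0.0369). With run as a covariate, the change at boundary 2 in Del_13-33 was -0.0047 and was not called. Around the border the Full-length line ran from 0.802 over expected at 40 kb below to 0.635 at 20 kb below, 0.643 at boundary 2, 0.670 at 20 kb above, 0.814 at 40 kb above and 1.12 at 60 kb above. The low point thus covered 3 neighbouring bins, whose windows overlap. The WT parental line had its lowest value of these at boundary 2 itself (0.552).

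**Figure D3:**
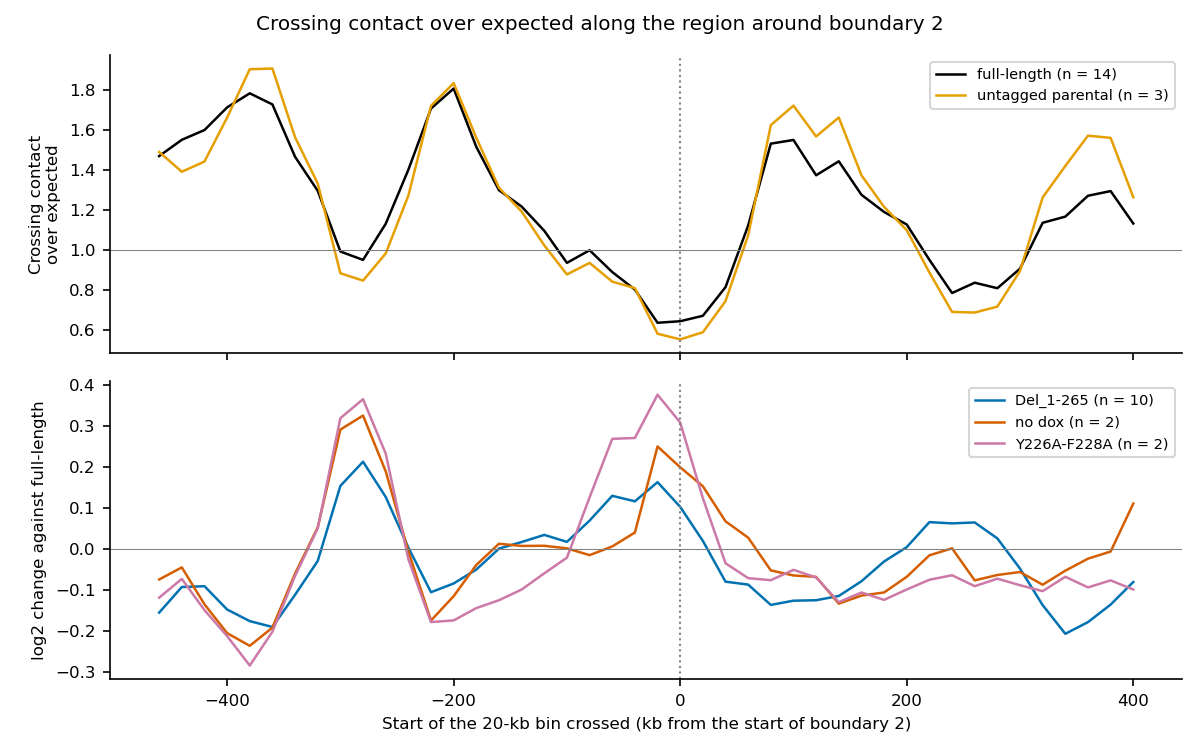
The upper panel gives crossing contact over expected for bins along the region, by their distance in kb from boundary 2, in the Full-length and WT parental lines, and the lower panel gives log2 changes against Full-length. Both lines dip below 0.7 at boundary 2 and rise above 1 at 60 kb above it.

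The response to Del_1-265 differed between borders. On the corrected scale, the log2 difference at boundary 2 was below that at boundary 3 by -0.16 (adjusted p = 0.0008, permutation over 20 comparisons) and below that at boundary 5 by -0.22 (adjusted p = 0.0004). It was above that at boundary 4 by 0.18 (adjusted p = 0.00987, permutation), and these 3 calls of 20 also held over expected. Against boundaries 1 and 6 the differences were -0.024 and 0.070 and were not called. Without dox, boundary 2 also changed less than boundary 5, by -0.18, which was not called (adjusted p = 0.0557, permutation).

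The endogenous deletion of residues 13 to 33 was compared with its parental line in untreated cells, where the mutant protein is made from the CTCF gene itself. In otherwise untagged cells, WT parental libraries stood at 0.562, 0.558 and 0.537 over expected, and the 7 deletion libraries between 0.558 and 0.610, so the groups nearly separated. The log2 difference was 0.080 (exact permutation p = 0.0333, adjusted p = 0.2 over 7 comparisons), and no comparison of this family was called on either scale. On the corrected scale, WT parental libraries stood at 6.90, 6.89 and 6.04 and the deletion libraries at 6.33 to 7.57, a log2 difference of 0.054 (exact permutation p = 0.5), which became -0.010 without the WT parental library of run 5. Within each run the groups separated. In run 4 the deletion libraries were at 7.57, 7.40 and 7.34 on the corrected scale against 6.90 and 6.89, and in run 5 at 6.603, 6.38, 6.33 and 6.45 against 6.04. The within-run log2 difference was 0.10 (exact permutation p = 0.04, the smallest possible, adjusted p = 0.156).

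In the untagged comparison, the near pairs were the only class called. Over expected they stood at 0.627, 0.681 and 0.650 in WT parental cells and at 0.730 to 0.801 in the 7 deletion libraries, which did not overlap. The log2 difference was 0.24 (adjusted p = 0.0462 over 36 class comparisons, exact permutation, at the smallest p that 7 against 3 allows). Without any 1 of the 3 WT parental libraries the smallest possible p becomes 0.0556, and the difference then ran from 0.208 to 0.267 over all libraries left out in turn. On the corrected scale the near difference was 0.22 and was not called. The 32 pairs with a peak in 1 fragment differed by 0.053 over expected and were not called.

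In CTCF-AID cells the same deletion went with lower mean values, and the permutation tests did not call the difference. Across the bins along the region on the corrected scale, limma with run as a covariate called boundary 2 lower (-0.13, limma adjusted p = 0.00203). It called 130 of 188 bins, all lower, and without the covariate it called 0. Parental CTCF-AID libraries stood at 8.30, 8.61, 6.38 and 6.10 on the corrected scale, which followed the runs, and the 8 deletion libraries at 5.34 to 7.95. In run 4 the deletion libraries were all lower than both parental libraries, at 7.95, 7.48, 7.06 and 6.90, and in run 5 they were mixed, at 6.09, 6.26, 5.34 and 6.47. The log2 difference was -0.13 (exact permutation p = 0.323) and the same within runs (exact permutation p = 0.0622). Over expected it was -0.041 (exact permutation p = 0.408), and near pairs stood at 0.797 in the parental and 0.779 in the deletion libraries. The 2 deletion effects differed for near pairs over expected, by 0.27 on the log2 scale (adjusted p = 0.0147 over 3 measures, permutation of genotype within each background). For all pairs over expected the difference was 0.12 (permutation p = 0.0344, adjusted p = 0.0517), and on the corrected scale 0.18 (permutation p = 0.226), which became 0.23 within runs (permutation p = 0.00124, not adjusted). The parental lines also stood apart from each other, since CTCF-AID libraries exceeded all WT parental libraries over expected (0.613 against 0.552 on average, log2 difference 0.15, exact permutation p = 0.0571, the smallest possible).

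**Figure D4:**
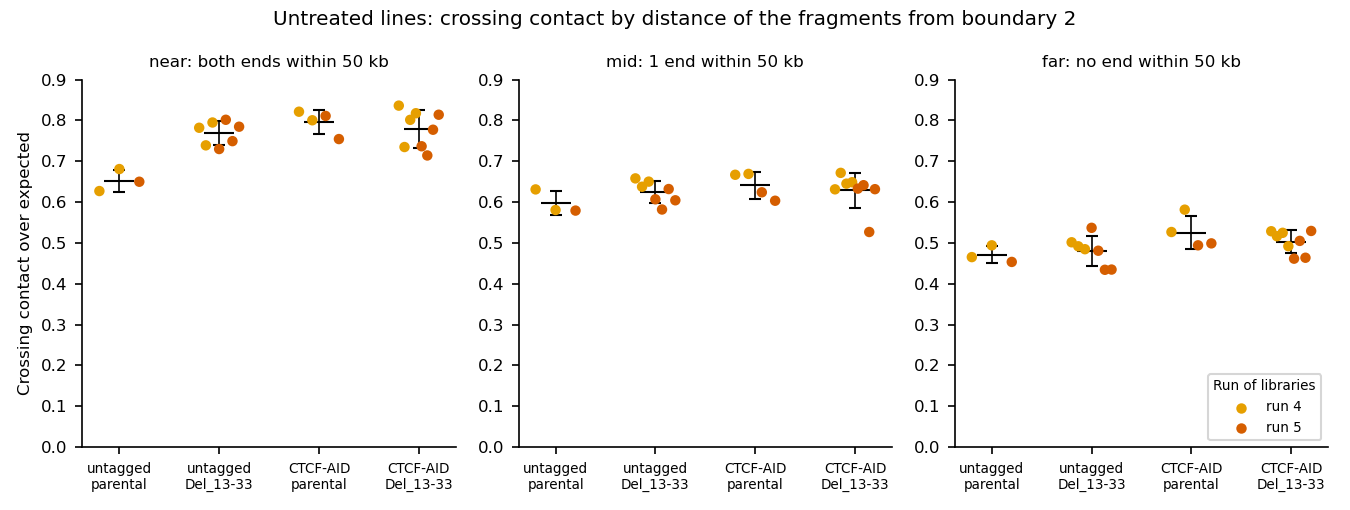
Crossing contact over expected in the 22 untreated libraries, for near, mid and far pairs in separate panels, with 1 point a library coloured by run and bars at the mean and SD. In the near panel the untagged deletion libraries (0.730 to 0.801) all lie above the WT parental libraries (0.627 to 0.681), and the CTCF-AID groups overlap.

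Single pairs were tested by limma on log2(value + 1) across 77538 pairs up to 1 Mb apart. In Del_1-265, 0.94% of all pairs were called, and 1 of the measured crossing pairs. This was the pair of FOR_Xic4_164 (chrX:99391317-99393188, between Rps4x and Gm14859) with REV_Xic4_171 (chrX:99443105-99444552, in Cited1), 51.6 kb apart, and it was also the pair with the highest Full-length mean. It ranged from 20.2 to 49.4 on the corrected scale with a median of 34.3 in the Full-length libraries and from 39.6 to 58.4 in the Del_1-265 libraries. The ranges overlapped, and the log2 difference was 0.48 (SE 0.12, limma adjusted p = 0.0355). The call was lost without any 1 of 4 Full-length libraries (1 of run 2, 2 of run 4 and 1 of run 5) or 5 Del_1-265 libraries (clone 1 replicates 1, 2, 5 and 6 and clone 2 replicate 2). On the counts, edgeR called 0 member pairs, beside 0.313% (TMM) or 0.342% (library totals) of all pairs. DESeq2 called 0 member pairs, beside 0.718% of all pairs. In the other lines the pair stood at 44.3 and 63.3 on the corrected scale in Y226A-F228A, 24.1 and 49.0 without dox, 16.8, 24.6 and 32.6 in WT parental cells and 34.2 ± 7.8 (SD, n = 7) with the untagged endogenous deletion.

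**Figure D5:**
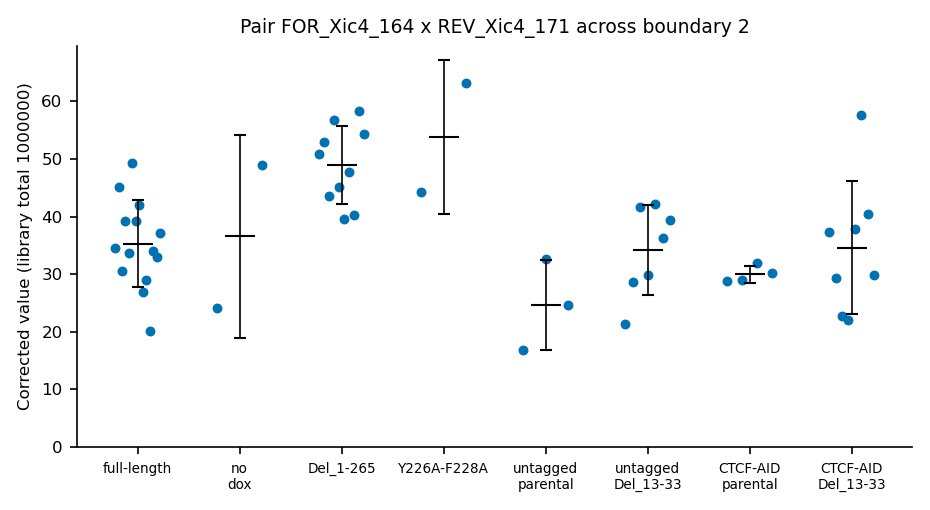
Corrected value of the pair of FOR_Xic4_164 and REV_Xic4_171 in each library of the lines named on the axis, with 1 point a library and bars at the mean and SD. The Del_1-265 points (39.6 to 58.4) overlap the upper part of the Full-length points (20.2 to 49.4).

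No crossing pair was called by limma in the other 5 contrasts, where the share of all pairs called was 0.0451% without dox, 0.00387% in transgenic Del_13-33, 0.393% in Y226A-F228A, 0.00129% for the untagged endogenous deletion and 0% for that deletion in CTCF-AID cells. At an unadjusted p under 0.05, limma gave 13, 24, 34, 17 and 31 of the members in these contrasts, and 26 in Del_1-265. As shares of the members these were 4.8%, 8.86%, 12.5%, 6.27%, 11.4% and 9.59%, beside 6.04%, 6.72%, 10.1%, 5.53%, 7.68% and 11.6% of all pairs tested, in the same order. DESeq2 called 5 members in Y226A-F228A, all lower than Full-length, where it called 2.66% of all pairs lower. The median log2 difference of the members was 0.23 without dox against 0.08 over all pairs tested, 0.12 against -0.03 in Y226A-F228A and 0.01 against -0.06 in Del_1-265. It was 0.02 against -0.03 for the untagged endogenous deletion, -0.14 against -0.08 in transgenic Del_13-33 and -0.21 against -0.12 for the deletion in CTCF-AID cells.

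The pairs with a FLAG-CTCF peak in both fragments were FOR_Xic4_172, which spans the start of Cited1 and its peak, with REV_Xic4_158, which holds peak 3, and with REV_Xic4_152, which holds peak 2. The first, 74.2 kb apart, stood at 19.7 ± 7.3 on the corrected scale (SD, n = 14) in the Full-length line, with a lowest value of 9.41 and a highest of 34.2, and was above expected at 1.12. In Y226A-F228A it stood at 40.6 and 48.7, above all Full-length libraries, with a log2 difference of 1.22 (SE 0.37, limma adjusted p = 0.149, not called). In Del_1-265 it stood at 19.0 ± 6.4 (SD, n = 10), and with the untagged endogenous deletion at 17.1 ± 3.5 (SD, n = 7) against 4.35, 22.6 and 32.4 in WT parental cells. The second, 90.2 kb apart, stood at 10.9 ± 4.5 (SD, n = 14) in the Full-length line, or 0.736 over expected, and at 8.40 ± 3.3 (SD, n = 10) in Del_1-265. Over expected the 2 pairs together exceeded Full-length by 0.96 on the log2 scale in Y226A-F228A (adjusted p = 0.0667, exact permutation) and differed by -0.088 in Del_1-265, and neither was called. The 237 pairs with no peak in either fragment were called over expected in Del_1-265, without dox and in Y226A-F228A, at 0.10, 0.19 and 0.31.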

How the data were processed

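Reads had been assigned by the authors to pairs of 5C primers (mm9), and the deposited raw counts gave 1 value per pair and library, of which 82 complete count matrices were used and 9 that ended early were not. The authors also deposited corrected matrices of signal, made by iterative correction with cooltools at default settings without poorly covered primers. Of these, 78 were scaled by the authors to a sum of 1000000 and 13 were not, so the forward by reverse block of each of the 91 matrices was set here to 1000000. Iterative correction gives every primer the same total, so a change at 1 place is offset elsewhere. The deposited peak list (mm9, other units, no score) came from FLAG ChIP-seq of the Full-length line after 2 days of auxin and dox, with Bowtie2, as peaks found in both libraries. Deposited 5C matrices were made per library, with no pooling.

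Pairs were placed by the midpoints of their fragments. Crossing contact was the mean over measured pairs, 2.92% of whose values were 0, and was compared as log2 by two-sided exact permutation tests, or 100000 resamples where both groups had 10 or more libraries, with Benjamini-Hochberg adjustment within each family of comparisons. Runs of library numbers are no stated batch of preparation. Single pairs were fitted with limma 3.58.1 in R 4.3.3 on log2(value + 1), without pairs at 0 in over 50% of libraries, and edgeR 4.0.16 and DESeq2 1.42.0 were run on the counts. Members, lists and the scale over expected were chosen with earlier results of these data known. Named pairs were the 5 with the highest Full-length mean, those called in Del_1-265, and those with a peak in both fragments. Methods were tested on simulated data. Groups followed the labels, and the library whose title names Del_615-736 but whose line is that of Del_576-614 was grouped by its line. Same-numbered libraries did not deviate together (at most 2 pairs of numbers per comparison correlated over 0.1), so numbers were not used as pairs. No 2 libraries held equal counts in more than 4.64% of pairs. The count behind a value covers counting error only.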

Additional observations from a re-analysis of the deposited data

Results flagged for a closer look

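Del_13-33 in otherwise untagged cells and in CTCF-AID cells differed from its parental line by unequal amounts. For near pairs over expected the 2 log2 differences, 0.236 and -0.034, were 0.270 apart (permutation p = 0.00492, adjusted p = 0.0147 over 3 measures), and within runs 0.273 (permutation p = 0.0096). For all crossing pairs over expected they were 0.121 apart (permutation p = 0.0344, adjusted p = 0.0517), and within runs 0.137 (permutation p = 0.00551). On the corrected scale the 2 differences were 0.182 apart (permutation p = 0.226), and within runs 0.230 (permutation p = 0.00124). The CTCF-AID parental line itself stood above the WT parental line, so the 2 deletions were measured from different starting levels, and the part of that difference was not tested.

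A single library stood far from the others of its line in 2 of the 24 lines and measures of 4 to 10 libraries that were examined, where chance flags about 1 in 20. In Del_13-33 clone 2, replicate 4 was at 0.620 over expected and the other 3 libraries at 0.643 to 0.645. In endogenous Del_13-33 clone 2 of CTCF-AID cells, replicate 3 was at 0.533, the lowest of the series, and the other 3 at 0.606 to 0.616.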

How the results depend on the processing

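Of 321 recomputed values that left out no library, 255 were labelled as kept, and of 966 that left out 1 library 935 were. A difference was kept where its direction and its side of the threshold stayed. Many values were counts of calls, kept where equal or close in number, including 0 that stayed 0. The scale over expected was planned as an alternative for crossing contact of the lines. It was not planned for flanks, classes, other borders, runs as a block over expected, single pairs or bins, where it was added. It changed most calls. It took calls from 0 to 11 among transgene lines, 0 to 1 among flanks and 0 to 13 among classes, with log2 differences of 0.199 without dox, 0.103 in Del_1-265 and 0.308 in Y226A-F228A. Over expected, the same 11 calls remained without each Full-length library in turn, joined by others (13 in all) without replicate 8. With runs as a block it gave 2 calls (0.0872 in Del_1-265). A ratio to pairs within the flanks gave 3 calls (Del_1-265 0.202) and flanks of 50 kb gave 2 (0.180). Del_1-265 turned to -0.043 with the median over pairs and -0.040 with flanks of 200 kb. Over expected, its lower flank was at -0.042, its upper flank at -0.022 and its far pairs at 0.042, each of opposite sign on the corrected scale. Del_13-33 turned to 0.0038 within runs and 0.038 over expected within runs. Del_13-33 against Del_1-265 lost its call, the 1 between lines, and left 0, with the median (-0.140), flanks of 200 kb (-0.104), runs (-0.0875) and runs over expected (-0.0552). The untagged endogenous deletion turned to -0.012 on raw counts, -0.0085 with flanks of 200 kb, -0.071 with windows 20 kb lower and -0.010 without the WT parental library of run 5, and that in CTCF-AID cells to 0.069 as a ratio to the flanks. Without dox, the upper flank turned to 0.170 on raw counts. With the replicate number as a block, which pairs libraries by number alone, crossing contact was -0.058 without dox, -0.178 at low expression and -0.047 in Y226A-F228A, and the flanks without dox were at 0.040 and 0.142. The block left 0 single pairs in Del_1-265, where 0.901% of all pairs were called. There edgeR with TMM or library totals and DESeq2 also gave 0, beside 0.313%, 0.342% and 0.718% of all pairs. In Y226A-F228A the block and a pseudocount of 0.25 gave 1 pair and DESeq2 gave 5, all lower, where 0.681%, 0.805% and 2.66% of all pairs were called lower. The bins called along the region, of 188, were 60 in Del_1-265 (120 over expected, 11 on raw counts, 115 with run as a covariate). They were 19 without dox (87, 0 and 65, and 48 with the replicate block) and 38 in Y226A-F228A (107, 6 and 73, and 121 with the replicate block). In Del_13-33 they were 121 (48, 0 and 40), all lower on the corrected scale with or without run. For the deletion in CTCF-AID cells they were 0, or 130 with run, all lower. Leaving out 1 library in turn gave -0.010 to 0.086 for the untagged endogenous deletion, 0 to 1 calls among classes, 0 to 1 single pairs in Del_1-265 and in Y226A-F228A (1 without its replicate 1), and bins of 0 to 20 without dox (0 without its replicate 1, 9 without its replicate 2), 7 to 54 in Y226A-F228A (9 and 7 without its replicates 1 and 2) and 0 to 95 for the deletion in CTCF-AID cells (95 without CTCF-AID replicate 4, 1 without replicate 3). Pairs measured in all libraries were the same as those measured at all. The causes were not tested. Groups without complete counts had no value on raw counts. Groups of 2 against 2 cannot reach significance by permutation.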
